A study of Mus musculus with 14 samples.

Results

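The stefin A-like genes of mouse chromosome 16 were followed in RNA of Nes-GFP+ bone marrow stromal cells (BMSCs) from leukemic and normal mice. The 7 genes are BC100530, BC117090, Csta1, Stfa1, Stfa2, Stfa2l1 and Stfa3, taken by name from a table of 27099 genes. They were chosen with their levels in these libraries known, so the differences between AML and normal mice are given as a description, without a test. All 7 were among the 18152 genes with enough counts to be tested.

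Stefins are small intracellular proteins of the cystatin superfamily that bind papain-like cysteine proteases, such as cathepsins B, H, L and S, and block their active site. Humans have a single stefin A gene (CSTA), whereas the mouse carries a tandem cluster of closely related copies. In mouse blood formation, stefin A-like transcripts are known mainly from cells of the neutrophil lineage, and stefin A itself also from skin. Stfa1, Stfa2 and Stfa3 encode the classical mouse stefins A, Csta1 a further stefin A, and BC100530, BC117090 and Stfa2l1 predicted stefin A-like inhibitors.

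In GRCm38 (mm10), with genes from GENCODE release M21, the 7 genes lay on chromosome 16 between bases 36119946 and 36455392, a span of 335.4 kb. Each had 3 coding exons, and the second, which encodes the first inhibitory hairpin loop of a stefin, was 102 bases long in every one. The exon is printed here because its letters show how alike the copies are and which of them short reads can keep apart. Capitals mark bases unlike Stfa1.
Stfa1 (chr16:36280466-36280567, plus strand): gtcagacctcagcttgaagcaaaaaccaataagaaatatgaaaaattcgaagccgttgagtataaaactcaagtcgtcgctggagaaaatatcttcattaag
BC100530 (chr16:36364212-36364313, minus strand): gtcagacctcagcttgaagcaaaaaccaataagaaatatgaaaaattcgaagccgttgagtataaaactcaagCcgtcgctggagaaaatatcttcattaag
BC117090 (chr16:36322921-36323022, minus strand): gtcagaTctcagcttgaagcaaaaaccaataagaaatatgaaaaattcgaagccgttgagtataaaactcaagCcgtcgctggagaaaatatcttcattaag
Csta1 (chr16:36124974-36125075, minus strand): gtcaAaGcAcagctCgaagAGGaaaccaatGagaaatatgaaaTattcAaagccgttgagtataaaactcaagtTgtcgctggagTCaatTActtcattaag
Stfa2 (chr16:36405130-36405231, minus strand): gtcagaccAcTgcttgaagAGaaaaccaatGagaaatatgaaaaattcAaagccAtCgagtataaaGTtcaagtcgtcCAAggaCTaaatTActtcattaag
Stfa2l1 (chr16:36159946-36160047, plus strand): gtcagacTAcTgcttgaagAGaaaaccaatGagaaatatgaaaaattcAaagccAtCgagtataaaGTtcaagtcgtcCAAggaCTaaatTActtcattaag
Stfa3 (chr16:36452151-36452252, minus strand): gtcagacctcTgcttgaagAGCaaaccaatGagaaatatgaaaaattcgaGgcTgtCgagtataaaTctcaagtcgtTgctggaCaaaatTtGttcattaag
BC100530 differed from Stfa1 at 1 base of the exon and BC117090 at 2, whereas Csta1, Stfa2, Stfa2l1 and Stfa3 differed at 15, 17, 18 and 13 bases. Over the whole coding sequence, Stfa1 and BC100530 were 97.9% identical, BC100530 and BC117090 96.2%, and Stfa2 and Stfa2l1 96.4%. All pairs outside these sets of copies were 77.7% to 84.5% identical. The coding sequence was 291 bases in Stfa1, BC100530 and Csta1, 288 in BC117090 and 309 in Stfa2, Stfa2l1 and Stfa3.

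This likeness bears on the counts. Of all stretches of 50 bases in the transcripts of BC100530, 36.2% also occurred in a transcript of another gene, and the share was 33.7% for BC117090, 24.6% for Stfa2l1, 22.5% for Stfa1 and 15.9% for Stfa2. The share fell to 0.791% for Csta1 and 0% for Stfa3. How the authors' counting treated reads with several best positions is not given in the sources used here, so the split of counts among Stfa1, BC100530 and BC117090, and between Stfa2 and Stfa2l1, is uncertain, whereas Csta1 and Stfa3 were nearly free of such stretches. BC100530 also overlaps the antisense gene Gm15845, whose mean level over all libraries was 0.209 CPM (counts of a gene per 1000000 counts of its library after TMM scaling, the level used throughout).

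AML was studied in iMLL-AF9 mice, young adults in which doxycycline turns on the human MLL-AF9 fusion from a tetracycline-response element, by way of the transactivator rtTA in the ROSA26 locus. Bones were taken once white blood cell counts showed leukemia. Normal mice were given sucrose in water as vehicle in place of doxycycline, so that AML and doxycycline cannot be told apart. GFP stood under regulatory elements of the nestin gene, in mice of both kinds, and GFP+ cells negative for CD45, CD31 and DAPI (and, by the study's methods, Ter119) were sorted as Nes-GFP high or low. The high population gave 2 AML and 2 normal libraries, and the low population gave 4 AML and 6 normal libraries, each of 5615941 to 11436652 counts. Libraries came from single mice or from pools, without a record of which, and separate mice are not stated for replicates, so p-values measure the spread between these libraries only.

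Although the sort removed CD45+ cells, transcripts of blood cells were counted in all libraries, and 4 libraries stood apart. The summed level of 20 genes of neutrophils and their precursors was 89017 CPM in AML Nes-GFP low replicate 3, 91338 and 52954 CPM in normal Nes-GFP low replicates 3 and 4, and 33320 CPM in replicate 1 of normal Nes-GFP high BMSCs, against 860 to 15686 CPM in the other 10 libraries. None of the 20 genes was at 0 in any library. Transcripts of 11 stromal genes, Cxcl12 foremost, summed to 878 to 42773 CPM in the AML and 5903 to 83280 CPM in the normal libraries, and were under 10000 CPM in 6 libraries, AML Nes-GFP high replicate 1 and AML Nes-GFP low replicates 2, 3 and 4 among them. In such bulk libraries, fewer cells of a type and less RNA per cell cannot be told apart.

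The 7 genes together were far more abundant in the libraries from AML mice. In the high population their summed level reached 739 and 56.1 CPM with AML but 12.5 and 9.91 CPM without. In Nes-GFP low BMSCs it reached 117, 487, 400 and 233 CPM in AML mice, and 3.03, 3.33 and 83.4 CPM (lowest, median and highest of 6) in normal mice. Within each population, all AML libraries lay above all normal libraries. Across populations they did not, since normal Nes-GFP low replicate 4 (83.4 CPM) exceeded AML Nes-GFP high replicate 2 (56.1 CPM). The log2 ratio of the group means was 5.15 in the high and 3.69 in the low population. The former fell to 2.33 without AML Nes-GFP high replicate 1 and rose to 6.05 without replicate 2. The latter rose to 4.67 without normal Nes-GFP low replicate 4. Without the 4 neutrophil-rich libraries the ratios were 5.33 and 6.44, and without the 6 libraries poor in stromal transcripts, which left 1 AML library in each population, they were 2.33 and 2.33.

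Stfa1 and BC100530 carried most of these counts. Stfa1 stood at 299 and 12.5 CPM in the high population of AML mice, against 2.90 and 5.24 CPM in that of normal mice. In the low population it was 53.4, 185, 153 and 98.1 CPM in AML mice and 1.13, 1.75 and 16.8 CPM (lowest, median and highest of 6) in normal mice. All AML libraries were above all normal libraries within each population, with group means 38.2-fold apart in the high population (log2 fold change 5.25, standard error 1.75) and 21.3-fold apart in the low (4.41, standard error 1.01). BC100530, which RefSeq names Cstdc5, reached 244 and 16.9 CPM in the high population of AML mice but 0.504 and 2.97 CPM in that of normal mice. Among Nes-GFP low libraries it stood at 43.5, 144, 142 and 61.9 CPM in AML mice and at 0.505, 1.40 and 6.96 CPM (lowest, median and highest of 6) in normal mice. Its lowest AML value in either population was higher than its highest normal value, and the means were 75.1-fold and 35.4-fold apart (log2 fold changes 6.23, standard error 1.72, and 5.14, standard error 0.97).

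BC117090 showed the same order of groups at a lower level. In the high population it stood at 64.5 and 3.13 CPM in AML mice but 0.252 and 0.991 CPM in normal mice. Nes-GFP low values were 12.8, 39.1, 32.5 and 18.0 CPM in AML mice and 0, 0.470 and 2.23 CPM (lowest, median and highest of 6) in normal mice. Here too the lowest AML value, 3.13 CPM, was above the highest normal value, 2.23 CPM, and the log2 fold changes were 5.74 (standard error 2.09) in the high and 4.97 (standard error 1.20) in the low population.

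Csta1 was nearly silent in normal mice. In the high population of AML mice it had 47 counts (5.32 and 0.418 CPM), and it had 83 in the 4 AML Nes-GFP low libraries (1.03, 3.09, 3.23 and 1.14 CPM). Among the 8 normal libraries it had 1 count, in Nes-GFP low replicate 1 (0.107 CPM). With a floor of 3 counts per library for the normal libraries, its mean was at least 7.14-fold higher in AML Nes-GFP high BMSCs. For Nes-GFP low BMSCs the ratio of counts per sequenced read was 139, with an exact 95% interval of 24.2 to 5542 that covers counting error only. Of the 7 genes Csta1 had the fewest counts.

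The genes with the longer coding sequence, Stfa2, Stfa2l1 and Stfa3, separated the groups less well. For Stfa2 the high population gave 49.3 and 8.25 CPM in AML mice but 0.882 and 0.425 CPM in normal mice. In the low population it was 2.37, 54.4, 27.8 and 39.15 CPM in AML mice and 0, 0 and 12.5 CPM (lowest, median and highest of 6) in normal mice. The high groups did not overlap, but AML Nes-GFP low replicate 1 fell below normal replicates 3 and 4, and the log2 fold change in the low population was 3.61 with a standard error of 1.73.

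Stfa2l1, the close copy of Stfa2, overlapped more widely. The high population gave 76.5 and 14.7 CPM in AML mice but 7.93 and 0.283 CPM in normal mice. Nes-GFP low values were 0.412, 38.5, 30.3 and 3.90 CPM in AML mice and 0, 0.488 and 38.3 CPM (lowest, median and highest of 6) in normal mice. Its low groups spanned nearly the same range, and the log2 fold change there was 0.99 with a standard error of 1.65.

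Stfa3 was counted almost solely in Nes-GFP low libraries. In the high population it had 4 and 1 counts in AML mice and 0 in both normal libraries, too few for a fold. In the low population it stood at 3.30, 22.8, 11.4 and 10.9 CPM in AML mice and at 0, 0.205 and 10.02 CPM (lowest, median and highest of 6) in normal mice, with a log2 fold change of 2.02 and a standard error of 1.45. Normal replicates 3 and 4 lay within the range of the AML libraries and the other 4 normal libraries below it.

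**Figure D1:**
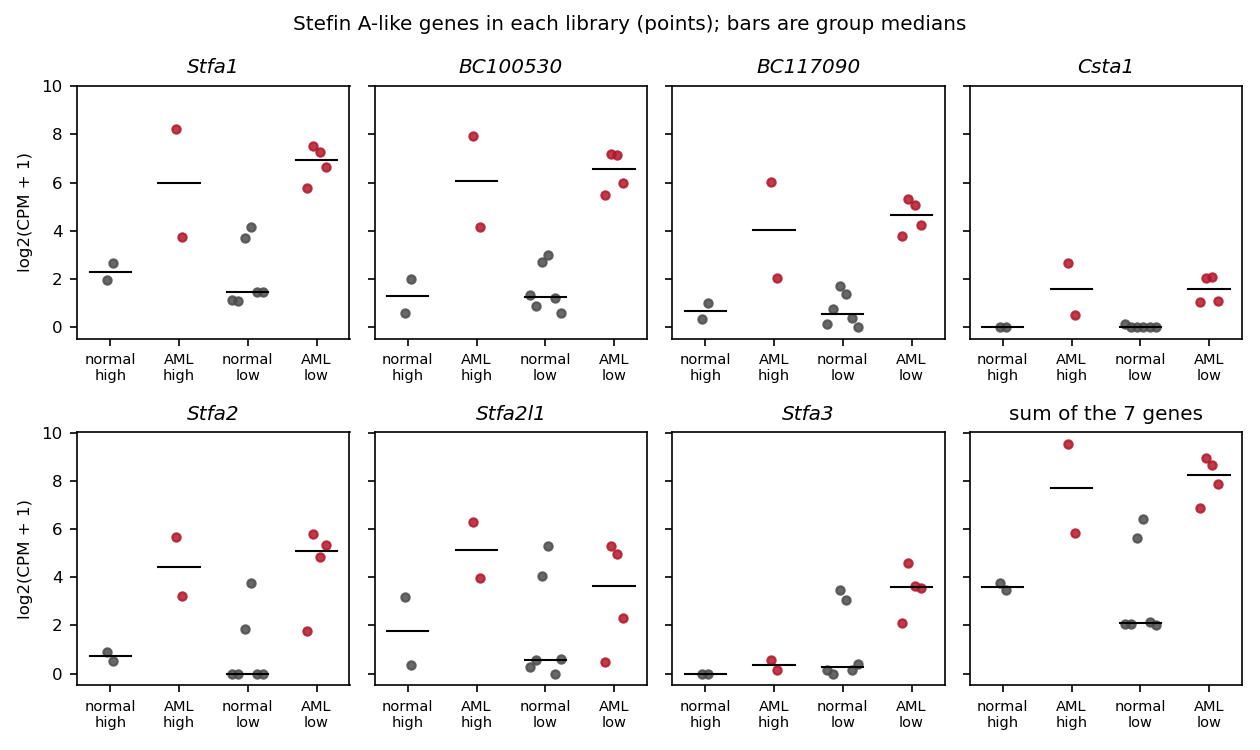
Level of each stefin A-like gene and of their sum in the 14 libraries, as log2(CPM + 1), by population and mouse (red, AML; grey, normal). Each point is 1 library and bars are group medians; Stfa1, BC100530, BC117090 and Csta1 do not overlap between AML and normal mice within a population, whereas in the low population Stfa2, Stfa2l1 and Stfa3 do.

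All 7 genes had every AML library above every normal library in Nes-GFP high BMSCs, where 16% of all tested genes did so, since only 2 libraries were set against 2. In Nes-GFP low BMSCs 4 of the 7 did so (BC100530, BC117090, Csta1 and Stfa1), against 0.441% of tested genes, and over both populations together 3 did so (BC100530, BC117090 and Csta1), against 0.0992%. The order of Stfa3 in the high population rests on 4 and 1 AML counts against 0 in both normal libraries. Because the genes were chosen with these values known, nothing is read from these shares. Without the 4 neutrophil-rich libraries, 6 genes (all but Stfa2l1) separated the low populations, against 3.51% of tested genes, and 5 (all but Stfa2l1 and Stfa3) separated AML from normal libraries over both, against 0.683%. The median log2 fold change of the 5 genes with over 3 normal counts in the high population was 5.43, beside 0.08 for all tested genes, and 5.34 with Csta1 at its bound. For Nes-GFP low BMSCs it was 4.01 for 6 genes, beside 0.00 for all tested genes, and 4.41 with Csta1 at the lower limit of its interval. Without AML Nes-GFP high replicate 1, the log2 fold changes in the high population were 3.27 for BC100530, 2.30 for BC117090, 1.60 for Stfa1, 3.60 for Stfa2 and 1.80 for Stfa2l1. Without normal Nes-GFP low replicate 4, those in the low population were 5.84 for Stfa2 and 2.43 for Stfa2l1.

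Per kb of exon, the order of the genes in AML mice was led by Stfa1, with a median of 177 CPM per kb over the 6 libraries, followed by BC100530 (129 CPM per kb), Stfa2 (71.0 CPM per kb), BC117090 (65.3 CPM per kb), Stfa2l1 (53.7 CPM per kb), Stfa3 (17.2 CPM per kb) and Csta1 (0.760 CPM per kb). Stfa1 exceeded BC100530 in 5 of 6 libraries, and BC100530 exceeded BC117090 in 6 of 6. The order among Stfa2, BC117090 and Stfa2l1 was not stable, with Stfa2 above BC117090 in 3 of 6 libraries and above Stfa2l1 in 3 of 6. Csta1 was below Stfa3 in 5 of 6 libraries, the exception being AML Nes-GFP high replicate 1. In normal mice the medians ran from 3.29 CPM per kb for Stfa1 down to 0 for Csta1, and those of BC100530, BC117090, Stfa2l1, Stfa2 and Stfa3 were 1.78, 1.22, 1.17, 0.451 and 0.243 CPM per kb.

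The make-up of the stefin A-like counts differed between libraries. Stfa1, BC100530, BC117090 and Csta1, the genes with the shorter coding sequence, made up 58.8% to 94.8% of these counts in the 6 AML libraries. In normal mice they made up 29.3% in Nes-GFP high replicate 1 and 40.8% and 30.4% in Nes-GFP low replicates 3 and 4, the 3 normal libraries rich in neutrophil transcripts, and 73.3% to 97.3% in the other 5. Stfa2l1 alone took 63.6%, 32.8% and 45.9% of the counts in those 3 libraries, against 0.353% to 26.3% in the AML libraries. In AML Nes-GFP low replicate 3, which was as rich in neutrophil transcripts, Stfa2l1 took 7.57% and Stfa1 and BC100530 together 73.7%. The normal libraries other than those 3 held 30 to 70 stefin A-like counts each, so their shares are known only roughly. This division of the 7 genes was made after their values were seen. Levels of Stfa1, BC100530, BC117090 and Csta1 moved together over the 6 AML libraries (pairwise r of log2(CPM + 1) 0.93 to 1.0). Stfa2l1 and Stfa3, the lowest pair, did not (r = -0.05), whereas Stfa2 had r = 0.74 with Stfa2l1 and 0.40 with Stfa3. Stfa2 also had r = 0.69 to 0.73 with the 4 genes of shorter coding sequence, so the division was not sharp there. Over the 8 normal libraries genes on either side of the division also moved together, with r = 0.93 between Stfa2 and Stfa2l1, 0.92 between Stfa1 and Stfa2, 0.90 between Stfa1 and BC100530, 0.87 between Stfa1 and Stfa3, 0.85 between Stfa1 and Stfa2l1 and 0.83 between Stfa2l1 and Stfa3. Csta1, with its single normal count, had r = -0.09 to -0.37 there. These correlations are descriptions over few libraries that share depth, cell make-up and, among copies, reads.

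**Figure D2:**
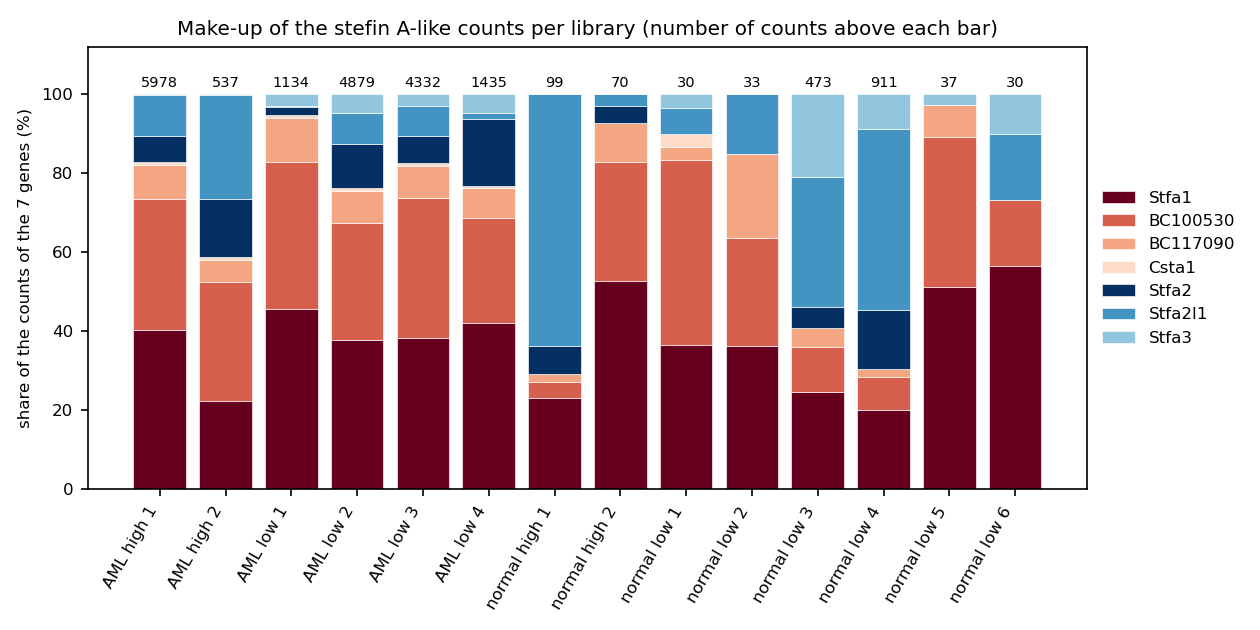
Share of each gene in the counts of the 7 stefin A-like genes (percent, from 0) for each library, with the number of counts above its bar. Stfa2l1 (mid blue) is largest in normal Nes-GFP high replicate 1 (63.6%) and normal Nes-GFP low replicates 3 and 4 (32.8% and 45.9%), whereas Stfa1 and BC100530 (dark red and red) together make up 52.5% to 82.98% in the AML libraries.

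Levels of the stefin A-like genes were set beside those of the neutrophil genes. At nearly equal neutrophil sums, AML Nes-GFP low replicate 3 (89017 CPM) had 400 CPM and normal Nes-GFP low replicate 3 (91338 CPM) 47.9 CPM of the 7 genes. Normal Nes-GFP low replicate 5 and AML Nes-GFP low replicate 1, with neutrophil sums of 5997 and 6728 CPM, had 3.46 and 117 CPM. As a percentage of the neutrophil sum, the 7 genes ranged from 0.449% to 5.15% in AML and from 0.0374% to 0.785% in normal libraries. For Stfa1, BC100530, BC117090 and Csta1 the ranges were 0.371% to 4.27% and 0.0110% to 0.729%, and for Stfa2, Stfa2l1 and Stfa3 0.0780% to 0.967% and 0.00156% to 0.110%. Pooled over the populations, each of these ranges overlapped between AML and normal mice. Within populations the percentage of the 7 genes did not overlap, at 2.35% and 5.15% against 0.0374% and 0.785% in the high and 0.449% to 3.16% against 0.0524% to 0.362% in the low population. Nor did that of Stfa1, BC100530, BC117090 and Csta1, at 1.38% and 4.27% against 0.0110% and 0.729% in the high and 0.371% to 2.43% against 0.0214% to 0.307% in the low. For Stfa2, Stfa2l1 and Stfa3 the high groups did not overlap (0.880% and 0.967% against 0.0265% and 0.0561%), but the low groups did (0.0780% to 0.738% against 0.00156% to 0.110%). Before such division, 16% of tested genes had all AML above all normal libraries in the high and 0.441% in the low population. That share was not computed for genes divided by the neutrophil sum. The 7 genes were chosen with their AML and normal levels known, so nothing is read from the percentages.

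Within the 6 AML libraries, the log2 summed level of the 7 genes correlated with that of the neutrophil genes at r = 0.72, and within the 8 normal libraries at r = 0.84. With 10 monocyte and macrophage genes r was 0.62 in AML and 0.91 in normal libraries, and with 10 pan-leukocyte genes 0.59 and 0.90. Among normal libraries, r with the neutrophil sum was 0.90 for Stfa2, Stfa2l1 and Stfa3 and 0.69 for the other 4 genes. Among AML libraries the order was reversed, at 0.50 and 0.74. Stromal transcripts went the other way in AML mice, with r = -0.79, against -0.14 in normal mice. The summed level of 10 pan-leukocyte genes was 454 to 10789 CPM in AML and 197 to 8067 CPM in normal libraries, that of 10 monocyte and macrophage genes 694 to 33990 CPM and 520 to 28434 CPM, and that of 5 genes known from MLL-AF9 blasts (Hoxa7, Hoxa9, Hoxa10, Meis1 and Pbx3) 66.9 to 199 CPM and 24.9 to 212 CPM. In the low population the log2 fold change was positive for 10 of 10 pan-leukocyte genes (median 0.77) and 9 of 10 monocyte and macrophage genes (median 1.32). In the high population it was negative for 8 of 10 pan-leukocyte genes (median -0.82) and positive for 6 of 10 monocyte and macrophage genes (median 0.24). Of all tested genes, 50.2% in the low and 52.1% in the high population had a positive log2 fold change. The summed level of the 7 genes was higher in AML mice in both populations, but the genes were chosen with this known. Nothing is therefore read from setting it beside these lists. Neither edgeR nor DESeq2 called any of these leukocyte and monocyte genes between AML and normal mice, and 0 had an unadjusted p under 0.05. The 5 MLL-AF9 blast genes had 4 positive log2 fold changes in each population (medians 0.99 in the high and 0.74 in the low). DESeq2 called 1 of them higher in the high and 0 in the low population, and edgeR none (1 and 0 at an unadjusted p under 0.05). Their sum was 161 and 199 CPM in AML against 58.3 and 66.3 CPM in normal Nes-GFP high libraries. In the low population it was 66.9 to 124 CPM against 24.9 to 212 CPM. Of the 20 neutrophil genes, 5 had a positive and 15 a negative log2 fold change in AML Nes-GFP high BMSCs, and 10 a positive and 10 a negative one in AML Nes-GFP low BMSCs (medians -1.08 and 0.06), and edgeR called none in either population, where 0 and 5 had an unadjusted p under 0.05 and DESeq2 called 0 and 0. Members went far apart in the low population, where the log2 fold changes were 2.60 for Ctsg, 2.36 for Chil3, 2.33 for Elane, 1.93 for Prtn3 and 1.61 for Mpo, against -4.12 for Retnlg, -2.94 for Cxcr2 and -1.74 for Csf3r (standard errors 0.83 to 1.75, edgeR's adjusted p = 0.765 to 1.0). Elane, the neutrophil elastase gene, was at 280 to 1491 CPM in AML and 11.4 to 263 CPM in normal Nes-GFP low libraries, without overlap. Erythroid transcripts (7 genes) summed to 6.90 to 1684 CPM in AML and 81.0 to 2039 CPM in normal libraries, and DESeq2 called 6 of them lower in the high and 2 in the low population, edgeR none (5 and 2 at an unadjusted p under 0.05). Lymphoid transcripts (8 genes) summed to 1.25 to 147 CPM in AML and 16.4 to 1460 CPM in normal libraries, and 5 of 6 tested genes had a negative log2 fold change in each population (medians -6.65 and -4.76). DESeq2 called 2 of them lower in the high and 1 in the low population, and edgeR none (2 and 3 at an unadjusted p under 0.05). Of 4 keratinocyte genes in the table, 2 were tested and none was called, with sums of 3.90 to 51.9 CPM in AML and 0.303 to 24.1 CPM in normal libraries. The part of blood cells in the stefin A-like levels was not tested.

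**Figure D3:**
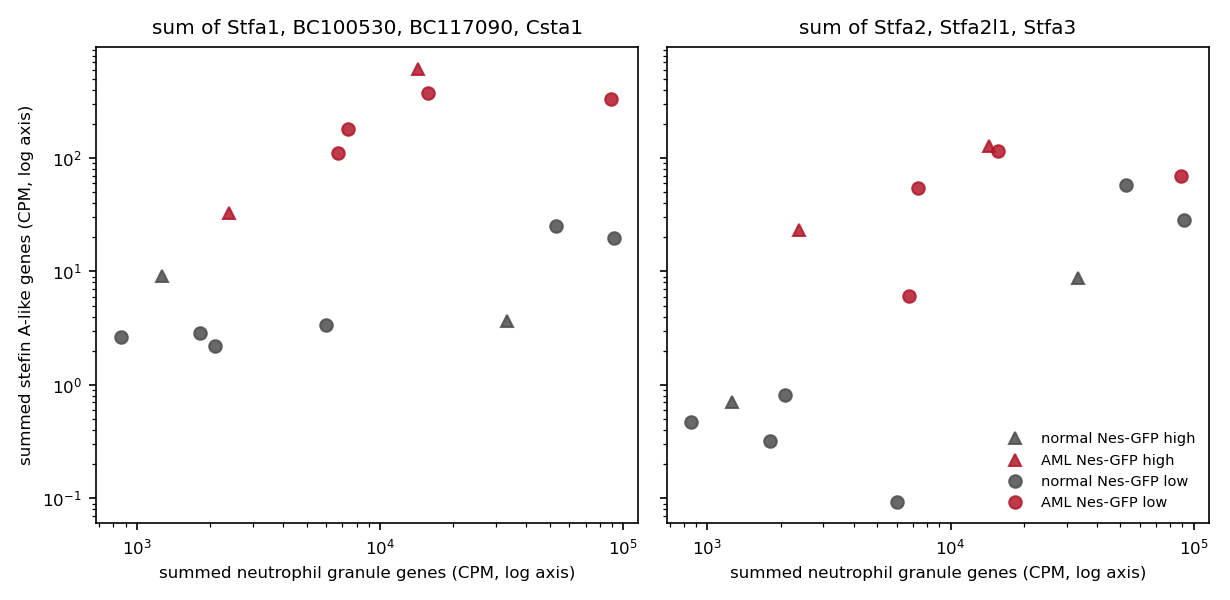
Summed level of Stfa1, BC100530, BC117090 and Csta1 (left) and of Stfa2, Stfa2l1 and Stfa3 (right) against the summed level of 20 neutrophil genes in each library (CPM, log axes; red, AML; grey, normal; triangles, Nes-GFP high; circles, Nes-GFP low). On the left all AML points (33.0 to 613 CPM) lie above all normal points (2.22 to 25.4 CPM), and on the right the most neutrophil-rich normal libraries reach 28.3 and 58.0 CPM, within the AML range of 6.08 to 126 CPM. The genes were divided between the panels after their values were seen, so nothing is read from the contrast of the panels.

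The sorted populations were also compared with each other within mice of one kind. None of the 7 genes passed edgeR's quasi-likelihood test between Nes-GFP high and low BMSCs, in AML or in normal mice, with 0 and 1 gene at an unadjusted p under 0.05 and 0 and 1 called by DESeq2. Over all genes edgeR called 0 in each comparison of this study, whereas DESeq2 called 6.29% and 10% of 17326 genes between populations in AML and normal mice, 9.19% and 0.681% between AML and normal mice in the high and low population, and 4.43% for the difference of the AML effect between populations. In AML mice the log2 fold changes of the genes other than Stfa3 ran from -0.10 for Stfa2 to 1.32 for Stfa2l1 (standard errors 1.16 to 2.24, edgeR's adjusted p = 0.893 to 1.0). Stfa3 stood apart at -5.29 on the log2 scale (standard error 2.64, edgeR's adjusted p = 0.576), with both high libraries (0.494 and 0.104 CPM) below all 4 low libraries (3.30 to 22.8 CPM), an order that 8.84% of tested genes had, and 0 of the 7 genes had the opposite order, against 6.9%. In normal mice Stfa3 was listed at 0 in both high libraries and at 0 to 10.02 CPM in the low ones, with an adjusted p = 0.406 from edgeR and 0.0351 from DESeq2. In normal mice 0 of the 7 genes separated the populations, where 3.48% of tested genes were higher in all high and 7.85% higher in all low libraries. For BC100530, BC117090, Stfa1, Stfa2 and Stfa2l1 the log2 fold changes there were -1.92 to -0.37 (edgeR's adjusted p = 0.819 to 0.966). Leaving out AML Nes-GFP high replicate 1 put the log2 fold changes of the other 6 genes in AML mice at -3.28 to -0.32. All 20 neutrophil genes were lower in the high than in the low population of AML mice in the fit (median log2 fold change -1.90), where edgeR called 0, with 0 at an unadjusted p under 0.05, and DESeq2 called 1. In normal mice 18 of these 20 were lower (median -0.68). All 10 pan-leukocyte and all 10 monocyte and macrophage genes were lower in both kinds of mice, and edgeR called 0 of them. Among the monocyte and macrophage genes, 1 in AML and 0 in normal mice had an unadjusted p under 0.05 from edgeR, and DESeq2 called 1 and 0. Among the pan-leukocyte genes these counts were 0. Of all tested genes, 46.1% in AML and 41.1% in normal mice had a log2 fold change above 0. The stefin A-like genes were chosen with their levels by population known, so the tests are not independent of the choice.

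Other genes within the cluster were examined for the same pattern. Of 10 other stefin A-like genes listed, 2 were in the table, Gm5483 and 2010005H15Rik. Gm5483 stood at 4.94 to 91.6 CPM in AML and 0.187 to 40.7 CPM in normal libraries, with log2 fold changes of 4.02 (standard error 2.20, edgeR's adjusted p = 0.473) in the high and 1.44 (standard error 1.24, adjusted p = 1.0) in the low population. 2010005H15Rik stood at 1.03 to 41.7 CPM in AML and 0.0934 to 8.79 CPM in normal libraries, with log2 fold changes of 5.53 (standard error 2.29, edgeR's adjusted p = 0.381; DESeq2's 0.0347) and 1.32 (standard error 1.19, adjusted p = 1.0). Neither passed edgeR's test. Both separated the 2 AML from the 2 normal Nes-GFP high libraries but overlapped in the low population.

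Genes that flank the cluster were examined next. Fam162a, a mitochondrial protein gene on the side of Csta1, was at 31.6 to 168 CPM in AML and 73.6 to 177 CPM in normal libraries, with log2 fold changes of -0.08 (standard error 0.74, edgeR's adjusted p = 1.0) and -0.49 (standard error 0.49, adjusted p = 1.0). The next gene, Ccdc58, had log2 fold changes of 3.17 (standard error 1.43, edgeR's adjusted p = 0.40) and 0.12 (standard error 0.84, adjusted p = 1.0). The processed pseudogene Gm10913, which lies inside the cluster, was at 2.47 to 11.9 CPM in AML and 2.63 to 7.07 CPM in normal libraries. On the side of Stfa3, Casr, the calcium-sensing receptor, was at 0 to 0.103 CPM in AML and 0 to 26.5 CPM in normal libraries. Its mean over all libraries was 1.96 CPM, so its normal level came mostly from the highest library, a Nes-GFP low one. Casr was at 0 in all Nes-GFP high libraries and was not among the tested genes. Cd86, a costimulatory ligand of antigen-presenting cells, was at 0.206 to 23.3 CPM in AML and 0 to 31.1 CPM in normal libraries. Cd86 was at 0 in both normal Nes-GFP high libraries, which leaves no fold there, and its log2 fold change in the low population was 0.97 (standard error 1.70, edgeR's adjusted p = 1.0). Wdr5b, beside Fam162a, had log2 fold changes of -2.07 (standard error 2.25, edgeR's adjusted p = 0.848) and 2.52 (standard error 1.40, adjusted p = 1.0). No gene within 250 kb of the cluster passed edgeR's test in either population, while DESeq2 gave Parp14, an ADP-ribosyltransferase gene on the side of Csta1, an adjusted p of 0.00387 in the high population, where its log2 fold change was -5.73.

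**Figure D4:**
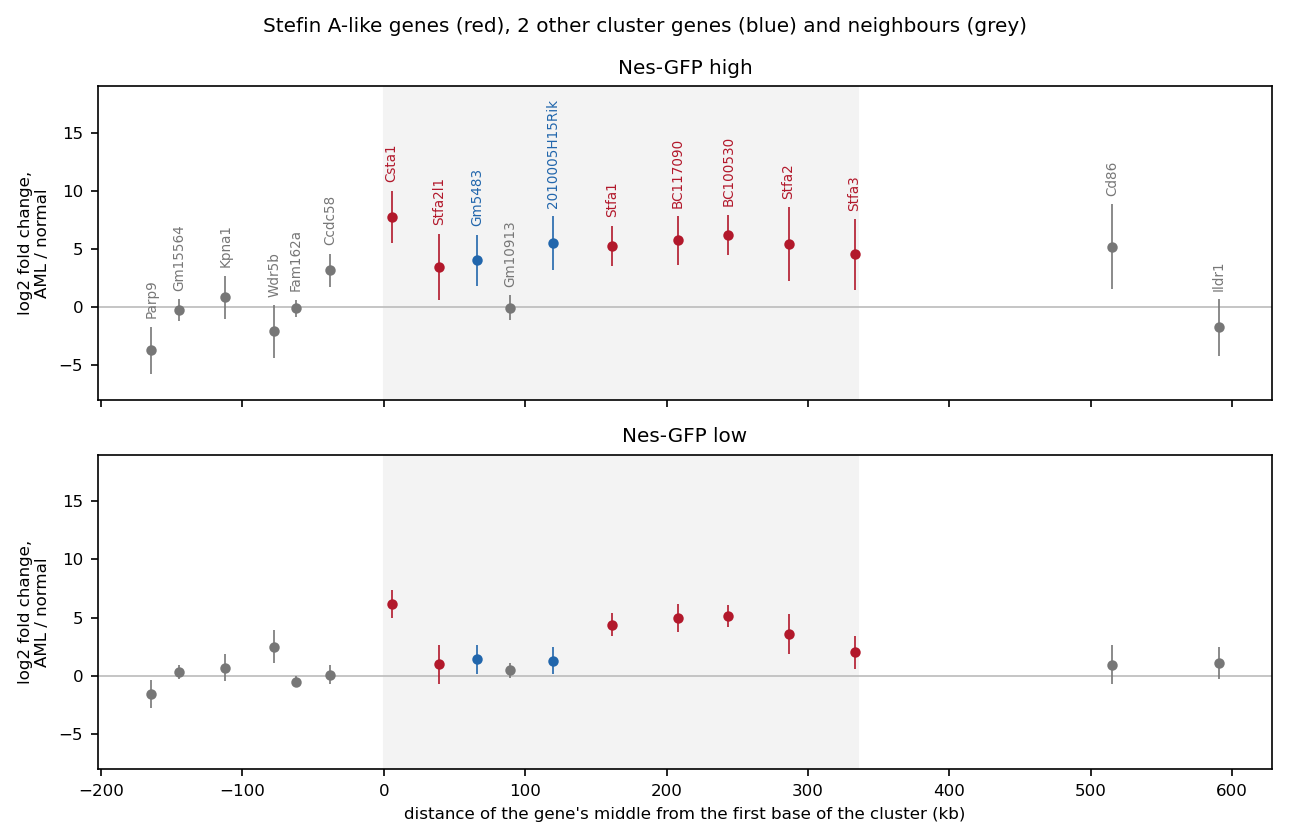
Log2 fold change of AML against normal mice, with standard errors from edgeR, for genes along the stefin A-like cluster and beside it, by the distance of the gene's middle from the first base of the cluster (kb; shaded, the 335.4 kb cluster; red, the 7 genes; blue, Gm5483 and 2010005H15Rik; grey, others). Red genes with over 3 normal counts sit at 3.47 to 6.23 in the high and 0.99 to 5.14 in the low population. Grey genes lie on both sides of 0, from -3.69 (Parp9) to 5.18 (Cd86) in the high and from -1.56 (Parp9) to 2.52 (Wdr5b) in the low. Cd86 aside, the highest grey point in the high population is 3.17 (Ccdc58). The points of Csta1 (in both panels) and of Stfa3 and Cd86 (high) rest on 1 normal count or none and depend on the fit.

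Sequence before the starts of the genes was compared. RefSeq promoters (GRCm38.p6, 250 bases before to 50 after a start) were at hand for 6 of the 7 genes, matched by Entrez gene ID, and that of BC117090 was not analysed here. Stretches of 30 bases from 5 genes are printed because the same 9 letters, in capitals, stood close to the RefSeq start in all of them.
Stfa1 (chr16:36277097-36277126, plus strand): gaggaggagctttcggataccTTTAAAACC
BC100530 (chr16:36367571-36367600, minus strand): gaggaggagtttacagataccTTTAAAACC
Stfa2 (chr16:36408384-36408413, minus strand): gaggaggagcttacagaaaccTTTAAAACC
Stfa2l1 (chr16:36156757-36156786, plus strand): gaggaggagtttacagaaaccTTTAAAACC
Stfa3 (chr16:36455415-36455444, minus strand): aggaggagcttacagataaccTTTAAAACC
The 9 letters TTTAAAACC began 9 bases before the RefSeq start in BC100530, 30 before it in Stfa1, 29 in Stfa2, 33 in Stfa2l1 and 31 in Stfa3, and Csta1 had none in its window. On either strand they occurred in 0.393% of 32851 mouse promoters. This motif was chosen after the sequences were seen, and the genes are copies of each other, so it carries no test. GENCODE places the starts of BC100530, Stfa1, Stfa2 and Csta1 further upstream, by 178, 197, 94 and 52 bases. Of other motifs searched on both strands, TATAAA was in 0 of the 6 windows (13.6% of all promoters), TTGCNNAA, letters of a C/EBP site, in 2 (Stfa1 and BC100530; 10.8%), GAGGAA, a core of PU.1 sites, in 6 (28.3%) and TGTGGT, a core of RUNX sites, in 6 (16.8%). A match is a description of letters and not of binding.

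Of the other cystatins, 8 of 17 listed genes were in the table and 7 were tested, and none passed edgeR's test between AML and normal mice. In the high population 1 had an unadjusted p under 0.05 and DESeq2 called 1, and in the low population both counts were 0. Cst3, the secreted cystatin C and the most abundant of them, reached 2931 and 22785 CPM in the high population of AML mice but 1873 and 2658 CPM in that of normal mice (log2 fold change 2.51, standard error 1.10, edgeR's adjusted p = 0.392). Nes-GFP low levels were 1263 to 8120 CPM in AML mice and 373, 1626 and 1987 CPM (lowest, median and highest of 6) in normal mice (log2 fold change 1.23, standard error 0.67, adjusted p = 1.0). Cstb, the other intracellular stefin, was at 99.96 to 141 CPM in AML and 35.8 to 180 CPM in normal libraries, with log2 fold changes of 0.48 (standard error 0.71, edgeR's adjusted p = 0.915) and -0.07 (standard error 0.46, adjusted p = 1.0). Cst7, cystatin F of leukocyte granules and lysosomes, had log2 fold changes of -7.17 in the high (standard error 3.35, edgeR's adjusted p = 0.414; DESeq2's 0.0474) and 2.78 in the low population (standard error 1.65, adjusted p = 1.0). In the high population Cst7 was at 0.104 and 0.247 CPM in AML mice and at 0 and 54.0 CPM in normal mice. The groups thus overlapped, and the fold there rests on 1 normal library. The kininogen genes Kng1 and Kng2, near-identical copies whose counts are uncertain, averaged 458 and 453 CPM over all libraries.

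The cysteine cathepsins, the proteases that stefins bind, did not pass the test in any of the comparisons of AML with normal mice. All 11 listed genes were tested, with 7 above and 4 below 0 in the high population (median log2 fold change 0.15, 0.08 for all tested genes) and 4 above and 7 below 0 in the low (median -0.11, 0.00 for all tested genes). Neither population had one at an unadjusted p under 0.05 or one called by DESeq2. Ctsb, the most abundant, was at 662 to 2770 CPM in AML and 516 to 1913 CPM in normal libraries, with log2 fold changes of 0.34 (standard error 0.63, edgeR's adjusted p = 0.960) and -0.11 (standard error 0.41, adjusted p = 1.0). Ctsl and Ctsz had log2 fold changes of -0.80 and 0.17 in the high and -0.47 and 0.27 in the low population (standard errors 0.36 to 0.86, edgeR's adjusted p = 0.845 to 1.0). Ctsf was at 0.15 and -0.06 on the log2 scale (standard errors 1.06 and 0.68, adjusted p = 1.0 in both).

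**Figure D5:**
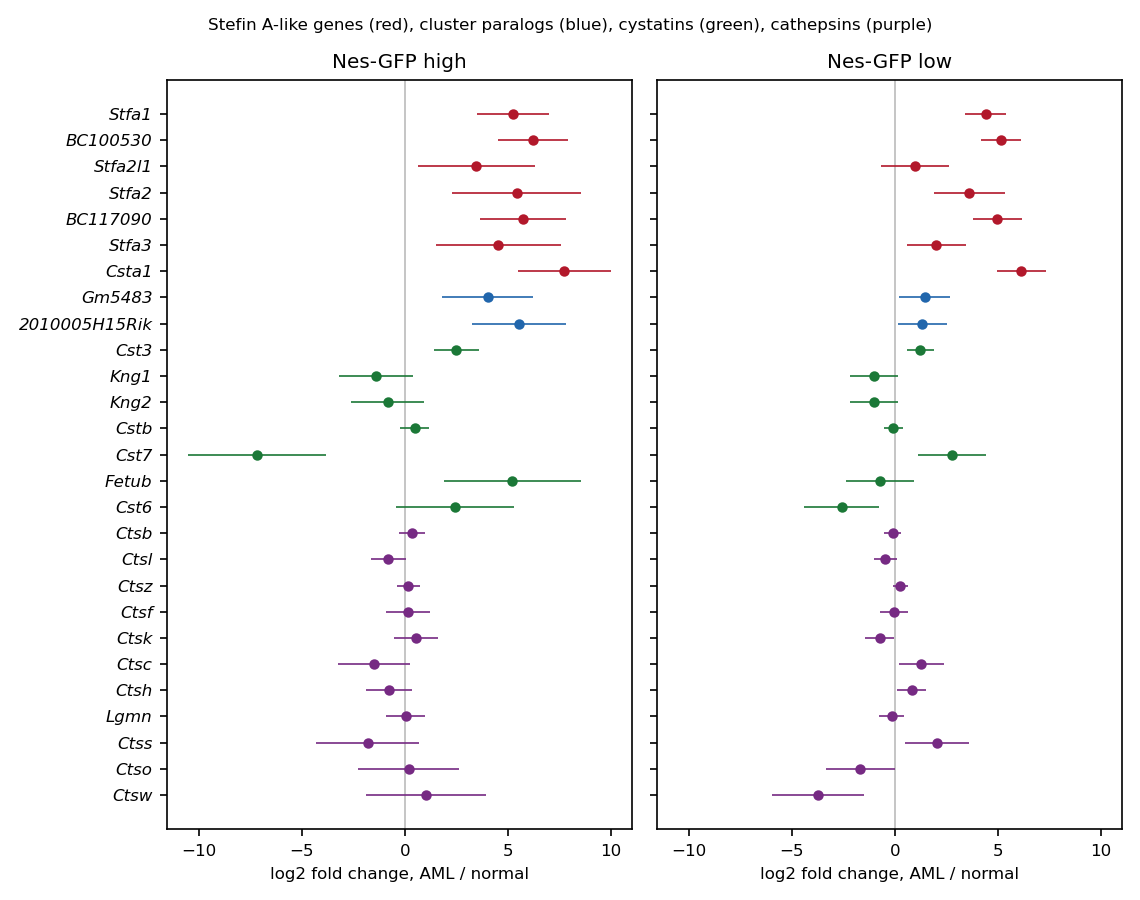
Log2 fold change of AML against normal mice with its standard error from edgeR for the 7 stefin A-like genes (red), Gm5483 and 2010005H15Rik (blue), other cystatins (green) and cysteine cathepsins (purple), in order of mean level within each set. The cathepsins lie at -1.80 to 1.04 in the high and -3.72 to 2.07 in the low population, and fitted values of Csta1, Stfa3, Fetub and Cst6 in the high population rest on no normal counts.

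The 12762 other genes averaging at least 5 CPM were ranked by likeness, and those nearest to the summed level of the 7 genes over the 14 libraries, by Pearson's r of log2(CPM + 1), were Coch (r = 0.87), Gm5483 (0.87), Tnfsf9 (0.87), Bnc2 (0.86), Tes (0.85), Gpi1 (0.84), Hhipl2 (0.83), S100a6 (0.83), Gm1840 (0.83) and Ptafr (0.82). Coch, which encodes cochlin, an extracellular matrix protein, was at 72.0 to 3546 CPM in AML and 0 to 26.6 CPM in normal libraries, without overlap. Of all tested genes, 0.0992% had every AML library above every normal library. The r of Coch fell to 0.46 within the 6 AML and 0.64 within the 8 normal libraries. Ptafr, the receptor for platelet-activating factor, was at 1.04 to 126 CPM in AML and 0.841 to 130 CPM in normal libraries, and followed the 7 genes within normal mice (r = 0.98 over 8 libraries). Gm5483 lies within the cluster. Of the marker lists, Ms4a6c, F13a1, Laptm5 and Cd14 came closest, at ranks 17, 19, 22 and 23 (r = 0.80 to 0.78). The 20 neutrophil genes had r from -0.07 (Retnlg) to 0.73 (Chil3). Of the azurophil granule genes, known from early stages of the lineage, Elane and Prtn3 had r = 0.72 and 0.65 but Mpo and Ctsg 0.47 and 0.42, and of genes known from later stages, Camp, S100a9, S100a8, Lcn2 and Ngp had r = 0.56 to 0.53 but Ltf and Ly6g 0.15 and 0.08. The libraries behind these correlations share depth and cell make-up. They also span AML and normal mice, and the 7 genes were chosen with that difference known. The list is not stable: 3 of the 10 genes were among the 10 leading ones with Spearman's correlation, and 3 with the Nes-GFP low libraries alone.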

How the data were processed

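RNA was amplified with Smart-seq2 from sorted Nes-GFP+ BMSCs. Per the labels, the authors trimmed reads with Trim Galore 0.4.1, aligned them to mm10 with TopHat2 2.1.0 and counted them with featureCounts. The strand setting and the treatment of reads with several positions are not given in the sources used here. The deposited values are raw counts per gene symbol (27099 rows, 13 symbols on 2 lines). Of 16 library columns, 2 could not be mapped to a sample and were not used.

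Counts were tested with edgeR 4.0.16 (quasi-likelihood, TMM, filterByExpr with a minimum count of 10, Benjamini-Hochberg over 18152 genes, two-sided, R 4.3.3), with all 14 libraries in 4 groups. Alternatives were DESeq2 1.42.0, voom of limma 3.58.1 with sample weights, other scalings and filters, a replicate block and each library left out. Tests were checked on simulated data. No library was a copy of another in its group (chi-square over its degrees of freedom 89.7 to 388). Floors were 3 counts per library. Intervals and floors cover counting error only, since no molecular identifiers were counted. Exon lengths, positions and coding sequences came from GENCODE M21 and promoters from RefSeq. Python 3.11.15 (pandas 2.3.3, numpy 2.4.6, matplotlib 3.10.9) served for tables and figures.

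The genes and lists were chosen with earlier results of these data known. Named were the 7 genes, up to 4 of each other list by mean level and any that passed a test, flanking genes, and the 10 genes most like the summed level. Others (Gm10913, Parp14, Parp9, Wdr5b, Cst7, Gm15845 and single marker genes) were named after their values were seen. Csta1 and Stfa3 aside, reads shared among copies could not be told apart.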

Additional observations from a re-analysis of the deposited data

Results flagged for a closer look

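Of 24 sets of 4 or 6 libraries examined, 2 held a library far from the others (gap to the nearest library over the range of the set, Dixon's limit at 95%), and chance would give about 1 in 20. Stfa2 was at 12.5 CPM in normal Nes-GFP low replicate 4, with a gap of 0.789 of the range. Csta1 was at 0.107 CPM in normal Nes-GFP low replicate 1, the only normal library with a Csta1 count, which is 1 read.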

How the results depend on the processing

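The counts of genes called by edgeR, 0 in every comparison, depended on the tool. DESeq2 called 1593 genes between AML and normal mice in the high and 118 in the low population, 1090 between populations in AML and 1737 in normal mice, and 768 for the difference of the AML effect between populations. Restricted to genes averaging 10 CPM or more, edgeR called 1 gene between AML and normal mice in the high population, and voom called 1 between populations in AML mice. With each library left out, edgeR called 0 to 194 genes between AML and normal mice in the high population, 0 to 1 between populations in AML mice, 0 to 189 in normal mice and 0 to 144 for the difference, the highest counts being without normal Nes-GFP high replicate 2, except in AML mice (without AML Nes-GFP low replicate 1). In the low population all left-out fits called 0. The cause was not tested.

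The log2 ratio of the summed level stayed positive under all alternatives run. It was 2.33 to 6.05 in the high population with each library left out and 2.33 without the libraries poor in stromal transcripts. In the low population it was 6.57 from group medians and 6.44 without the neutrophil-rich libraries, which also raised the genes separating AML from normal mice in both populations from 3 to 5. These library sets were chosen after seeing the data.

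Directions between populations were not stable. In AML mice voom gave log2 fold changes of -0.64 for BC100530, -0.89 for BC117090, -0.43 for Csta1, -1.03 for Stfa1 and 0.17 for Stfa2. With libraries left out, the ranges there were -2.53 to 1.30 for BC100530, -3.02 to 1.32 for BC117090, -2.31 to 1.30 for Csta1, -3.28 to 1.28 for Stfa1, -1.90 to 0.66 for Stfa2 and -0.32 to 2.04 for Stfa2l1. In normal mice they were -1.58 to 0.24 for BC117090, -0.93 to 0.20 for Stfa1, -2.66 to 0.31 for Stfa2 and -5.08 to 0.28 for Stfa2l1. There Csta1 was at 0.046 with DESeq2 and 0.27 with voom, and Stfa2 at 0.42 with voom.

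Whether replicate numbers pair the libraries could not be settled. Correlations of same-numbered libraries were -0.16 to 0.37, both ends from AML against normal libraries, which cannot share a mouse. Between high and low libraries of the same kind of mouse they were -0.14 to 0.15. There the deviations of the 2 high libraries from their mean mirror each other, so these values cannot decide it. With the replicate block, edgeR called 0 genes in every comparison, and log2 fold changes between populations turned to -0.81 for Csta1 and 1.63 for Stfa2 in AML mice and to 0.62 for Stfa1, 1.49 for Stfa2 and 1.69 for Stfa2l1 in normal mice. The AML differences kept their sign, at 3.41 to 6.53 in the high population for the 5 genes with normal counts.

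Nes-GFP high groups held 2 libraries each. Stefin A-like counts under 100 in 6 of the 8 normal libraries limit what can be said of the make-up there.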
